A study of Mus musculus with 3 samples.

Results

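Mature CD4 single-positive thymocytes were examined in single-cell RNA-seq of the mouse thymus. Cells were chosen by unique molecular identifier (UMI) counts of a few genes. A member carried at least 500 detected genes and under 10% mitochondrial UMIs, a summed count of at least 3 UMIs over Ccr7, Klf2, S1pr1 and Ms4a4b (called the egress gene sum below), at least 1 UMI of Cd4 and none of Cd8a or Cd8b1. It also carried at most 1 UMI over Mki67 and Top2a, no UMI of Foxp3, Zbtb16 or Trdc, and at most 5 UMIs of Cd74. This rule selected 313 of 23864 filtered cells, out of 25077 deposited barcodes.

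The study compared the cell populations of the thymus of female mice aged 4 weeks that carried germline alterations of the tumour suppressor gene p53, with 1 library per genotype. The genotypes were p53+/-, which retains 1 normal allele and which the series text calls wild type, p53 AD/-, which carries an allele written AD over a null allele, and p53-/-. The alleles were carried in every cell, none of the 3 groups was p53+/+, and p53+/- served as the reference. The strain labels read 50% BALB/C - 50% C57BL6 for p53+/-, 50% BALB/C - 50% C57BL7 for p53 AD/- and 50% BALB/C - 50% C57BL8 for p53-/-. These labels differ in their last digit alone, and whether they name different strains could not be settled. Because each genotype was 1 library, genotype, animal, any difference in strain and library preparation cannot be told apart, and no test between genotypes was made. Intervals are 95% intervals (exact Poisson for a level, exact binomial for a share or a ratio) and cover counting error only.

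Thymocytes that pass positive selection on MHC class II lose CD8 and become CD4 single-positive helper-lineage cells under the transcription factor ThPOK, encoded by Zbtb7b, while those selected on MHC class I become CD8 cells under Runx3. New single-positive cells use the chemokine receptor Ccr7 to enter the thymic medulla, where they mature and lose Cd69, Cd24a and Ccr9. The transcription factor Klf2 then drives S1pr1, the sphingosine-1-phosphate receptor through which mature cells leave the thymus.

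The p53+/-, p53 AD/- and p53-/- libraries held 46498800, 27638820 and 54164425 UMIs, and their members summed to 637443, 393328 and 922233 UMIs in the same order. A member held a median of 6325.5, 5482.5 and 5586 UMIs. The libraries differed in the share of the nuclear RNA Malat1, whose median per member was 2.74%, 1.40% and 3.62%. Ratios of the named genes and list medians were also computed over members matched on this share, 40 per library. Of the gene ratios, 59 stayed within their intervals, 30 moved beyond them, and 3 of at least 2-fold changed sign. Of the list medians, 30 stayed within 0.2, 12 moved and 1 changed sign. Only some of these values are given below, and the part of Malat1 in other results was not tested. Between 15 and 29 barcodes were shared by any pair of libraries, and no member barcode was.

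Among the members, 2 barcodes went against the label. All others carried at least 5 UMIs over Cd3d, Cd3e and Cd3g, which encode chains of the T cell receptor complex, with library medians between 18 and 21. One p53 AD/- barcode carried 3 such UMIs among 24457, together with 1153 UMIs of the lysozyme gene Lyz2, 549 of Apoe, 283 of Prg4, 231 of Saa3 and 121 of the complement gene C1qa, and it supplied 6.22% of all p53 AD/- member UMIs. One p53-/- barcode carried none, with 43 UMIs of Apoe among 3797 UMIs. Klf2, with 41 and 9 UMIs, gave most of their egress gene sums. They were found after the values had been seen, and results that they move most are also given without them.

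The members as a whole carried the genes of the CD4 lineage and few UMIs of the CD8 lineage. Zbtb7b (GRCm38 chromosome 3, 89377644 to 89394776) had a normalised level of 62.8, 38.1 and 53.1 CPM in p53+/-, p53 AD/- and p53-/- (CPM is the share of a gene in all UMIs of a set of cells, scaled to a fixed total), against 3.15, 6.68 and 7.73 CPM in mature CD8 cells chosen by the same rule with Cd8a or Cd8b1 in place of Cd4 (164, 169 and 223 cells, of which 162, 166 and 221 had at least 5 Cd3 UMIs). Cd40lg, which encodes the CD40 ligand through which helper cells act on B cells, stood at 39.2, 45.8 and 82.4 CPM, against 17.3, 16.2 and 14.7 in the CD8 cells. Both genes were higher in the CD4 set in every library, and without the 2 barcodes Zbtb7b was at 35.2 CPM in p53 AD/-. Runx3, the CD8-lineage regulator, was at 43.9, 30.5 and 43.4 CPM in members against 246, 163 and 284 in CD8 cells, and the cytotoxic granule gene Nkg7 at 34.5, 17.8 and 5.42 against 367, 265 and 293. Rag1, which cuts the receptor genes before selection, was at 12.6, 12.7 and 18.4 CPM against 2407, 2198 and 2399 in CD4 CD8 double-positive cells before selection (cells with Rag1, Cd4 and Cd8 UMIs and an egress gene sum of 0). All of these sets were selected on UMI values of the same libraries, so the contrasts between them are descriptions. Rag1 took part in the selection of the double-positive cells, and Zbtb7b, Cd40lg, Runx3 and Nkg7 in none.

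**Figure D1:**
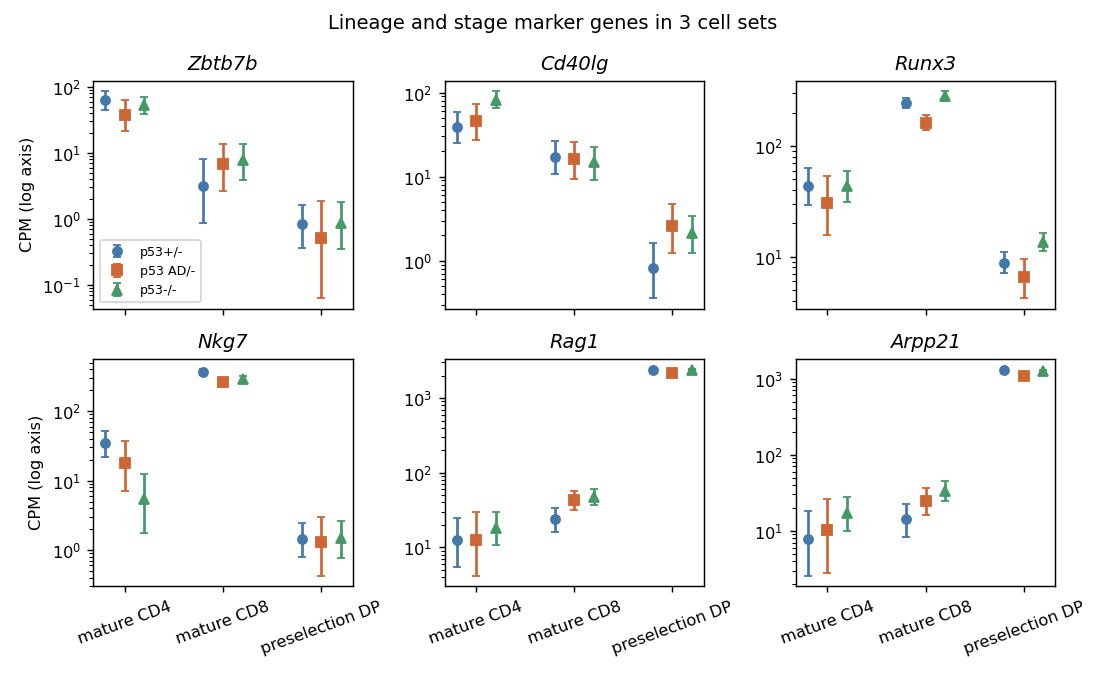
CPM on a log axis of lineage and stage marker genes in mature CD4 cells, mature CD8 cells and preselection double-positive cells, 1 point per library with its exact Poisson interval. Zbtb7b lies between 38.1 and 62.8 CPM in the mature CD4 cells and at most at 7.73 CPM in the mature CD8 cells.

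The rule uses no lineage regulator, and UMIs of these genes were sparse in single cells. Zbtb7b had a UMI in 32 of 94, 14 of 64 and 41 of 155 members. Zbtb7b or Cd40lg without Runx3 or Nkg7 was seen in 33, 20 and 57 members, both kinds in 12, 4 and 15, Runx3 or Nkg7 alone in 11, 6 and 13, and neither in 38, 34 and 70. The last class could not be placed by these 4 genes at this depth. Genes of regulatory T cells were present although Foxp3 was 0 by the rule: Ikzf2, which encodes Helios, stood at 334, 343 and 248 CPM in 26, 18 and 42 members, and Tnfrsf18, which encodes the costimulatory receptor GITR, at 158, 142 and 209 CPM. Tnfrsf4, of the same marker list, was at 176, 196 and 220 CPM in 44, 28 and 72 members. Ctla4 and Il2ra stayed at or below 40.1 CPM, and mature CD8 cells carried Ikzf2 as well, at 348, 239 and 464 CPM. The summed level of the 9 B cell and antigen-presenting cell markers was 132, 3379 and 146 CPM in p53+/-, p53 AD/- and p53-/-, and the p53 AD/- barcode above held 1153 of the 1154 p53 AD/- Lyz2 UMIs.

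The threshold of the rule cut through a continuous range. Exactly 3 UMIs of egress genes were carried by 12, 6 and 13 members, and 25, 15 and 15 cells that met all other criteria fell just outside with exactly 2. Members with a sum of exactly 3 held 3, 0 and 7 UMIs of Zbtb7b, and the cells just outside held 12, 1 and 5.

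Members made up 1.15% of filtered cells in p53+/- (94 of 8150, 0.933 to 1.41%), 1.04% in p53 AD/- (64 of 6171, 0.800 to 1.32%) and 1.62% in p53-/- (155 of 9543, 1.38 to 1.90%), and without the 2 barcodes 1.02% in p53 AD/- and 1.61% in p53-/-. The p53+/- and p53 AD/- intervals overlap widely, and the p53-/- interval overlaps that of p53+/- at its lower end. Mature CD8 cells numbered 164, 169 and 223, which gave 0.573 mature CD4 cells per CD8 cell in p53+/- (0.440 to 0.743), 0.379 in p53 AD/- (0.279 to 0.508) and 0.695 in p53-/- (0.563 to 0.857). The p53 AD/- ratio was the lowest, its interval overlapped that of p53+/- and lay below that of p53-/-. These shares and ratios depend on how many UMIs a cell yielded and on the level of the coreceptor genes. In preselection double-positive cells Cd8b1 was at 2565, 3678 and 2577 CPM in p53+/-, p53 AD/- and p53-/-, and Cd4 at 746, 749 and 778 CPM. The part of these levels in the ratio was not tested, and the ratio was not taken at equal depth. Of the cells with an egress gene sum of at least 3, 290, 181 and 489 had a Cd4 UMI, and of these 122, 80 and 208 had no UMI of Cd8a or Cd8b1. Thinning to 2000 UMIs left out all shallower cells and kept 7422 of 8150, 4145 of 6171 and 7775 of 9543 cells, so p53 AD/- lost the largest part. The shares among the kept cells were 0.755% (0.570 to 0.979%), 0.844% (0.589 to 1.17%) and 1.04% (0.828 to 1.29%), and these intervals overlap.

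Members were also divided at an egress gene sum of 8. The division uses the values that chose the members, and the genes along it were picked after values were seen, so the contrasts are descriptions. Without the 2 barcodes, a sum of 8 or more was reached by 67 of 94 members in p53+/- (71.3%, 61.0 to 80.1%), 38 of 63 in p53 AD/- (60.3%, 47.2 to 72.4%) and 96 of 154 in p53-/- (62.3%, 54.2 to 70.0%), and these shares overlap. Slfn1, a gene of quiescent T cells, was at 105, 76.8 and 81.7 CPM in members with a sum of 3 to 7 and at 375, 270 and 360 CPM in those with 8 or more. It was higher in the upper range in each library. The MHC class I gene H2-K1 was higher there by 0.99, 0.89 and 1.10 on the log2 scale, and Crip1 by 1.36, 2.60 and 1.32.

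Several genes of newly selected cells were lower in the upper range. Itm2a, an activation-induced gene of selected thymocytes, was at 767, 1061 and 972 CPM in members with a sum of 3 to 7 and at 205, 297 and 318 CPM above. Ccr9, a gene lost on maturation, was at 182, 272 and 338 CPM below and 70.0, 146 and 121 CPM above. Cd24a was at 76.7, 97.7 and 95.8 CPM below and 14.0, 31.03 and 10.7 CPM above. The log2 ratios of Ikzf2, named above among genes of regulatory T cells, were -3.34, -1.33 and -1.48. Only 8 of 94, 9 of 63 and 16 of 154 members held 5 or more of its UMIs, and 7, 5 and 11 of these lay in the lower range. The log2 ratios of Tnfrsf9, which encodes the costimulatory receptor 4-1BB, were -2.22, -2.02 and -1.52. Those of Tnfrsf4, also named above among genes of regulatory T cells, were -1.25, -1.54 and -0.71. Cd69, another gene lost on maturation, did not differ beyond its counting error (-0.38, 0.10 and -0.30), and the survival gene Bcl2 went in no common direction (1.26, -0.80 and 0.13). Cd4 did not differ beyond its counting error (0.24, -0.26 and 0.07), nor did Zbtb7b (0.96, 0.52 and -0.61). Median UMIs were 7786, 5468 and 5999 in the lower range and 6215, 5711.5 and 5436 in the upper one, so the upper range was not the deeper one in p53+/- and p53-/-.

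**Figure D2:**
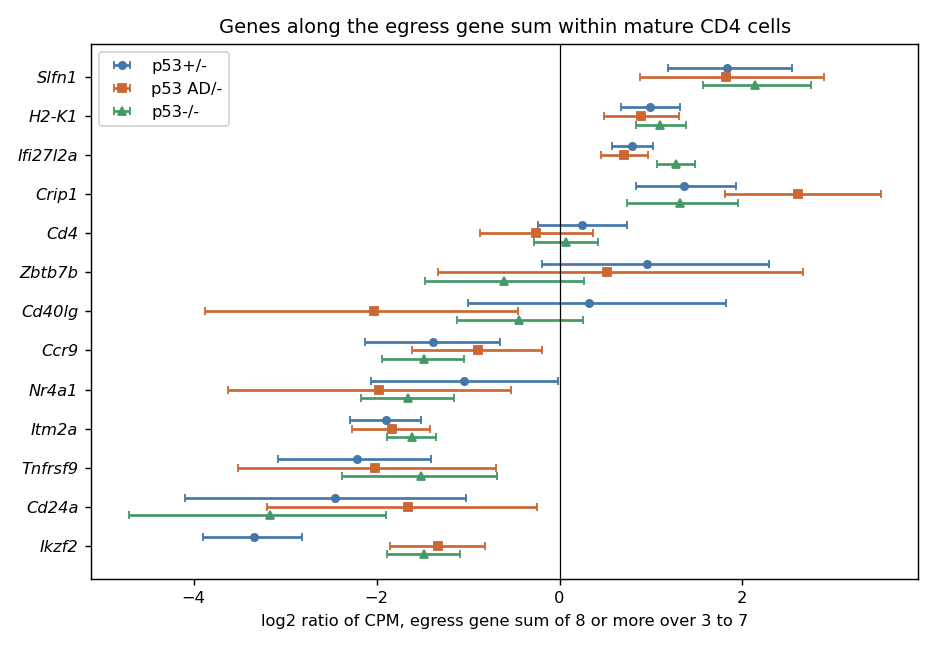
Log2 ratio of CPM between members with an egress gene sum of 8 or more and members with 3 to 7, for genes outside the rule and for Cd4, 1 point per library with its exact interval for counting error. Slfn1, Crip1 and H2-K1 lie above 0 and Itm2a, Ccr9, Cd24a and Ikzf2 below 0 in all 3 libraries.

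Beside mature CD8 cells with at least 5 Cd3 UMIs, the genes highest in mature CD4 cells in every library included the receptor genes Tnfrsf4 (176, 209 and 221 CPM against 24.2, 64.0 and 51.05), which encodes OX40, and the genes Tmem64 (62.8, 67.8 and 119 against 12.9, 20.7 and 27.7), Nrgn (26.7, 111 and 46.8 against 5.64, 7.87 and 14.2) and Samhd1 (177, 225 and 282 against 63.7, 85.6 and 101), a nucleotide phosphohydrolase. The CD8-lineage genes Nkg7 and Runx3 were the lowest, followed by Cxxc5, Itgae and Plac8. Itgae, the integrin CD103, had 6, 0 and 0 UMIs in members, all 6 in 1 cell, against 108, 39 and 101. Plac8 had 0, 1 and 2 against 103, 37 and 83. Against preselection double-positive cells, the cyclin gene Ccnd2 stood at 536, 726 and 920 CPM against 6.75, 8.33 and 15.2, and Igfbp4 at 146, 271 and 154 CPM against 1.04, 2.34 and 3.26. Arpp21, a gene of the double-positive stage, was at 7.84, 10.8 and 16.3 CPM in members against 1306, 1067 and 1254, and Endou at 1.57, 2.71 and 7.62 CPM against 610, 598 and 683.

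The rule's own genes differed in level between genotypes and are given as a description. Ccr7 was at 243, 392 and 473 CPM in p53+/-, p53 AD/- and p53-/-, with the p53+/- library lowest. Klf2 was at 460, 826 and 543 CPM, and at 770 CPM in p53 AD/- without the barcode above. S1pr1 (353, 308 and 377 CPM) and Cd4 (275, 247 and 320 CPM) had Poisson intervals that overlapped between libraries. The log2 ratio of Zbtb7b was -0.72 in p53 AD/- over p53+/- (-1.68 to 0.17) and -0.24 in p53-/- over p53+/- (-0.87 to 0.40), both spanning 0. Cd40lg, which the rule did not use, was higher in p53-/- than in p53+/- by 1.07 on the log2 scale (0.40 to 1.79). Over members matched on Malat1 share the ratio was 0.58.

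Trp53 messages were seen in all 3 libraries, at 110 CPM in p53+/- (70 UMIs), 91.5 in p53 AD/- (36 UMIs) and 77.0 in p53-/- (71 UMIs), so these counts do not check the genotype labels. Whether they read a part of the gene that the null allele keeps was not tested. Mdm2, a p53 target that degrades p53, was at 31.4, 35.6 and 38.0 CPM with 14 to 35 UMIs per library. Cdkn1a, the p53 target that arrests the cell cycle, had 0, 5 and 0 UMIs, and all 5 lay in the p53 AD/- barcode with few Cd3 UMIs. Without it Cdkn1a was at 0 in all 3 libraries, which allows up to 4.71, 8.13 and 3.27 CPM.

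Genes with at least 100 UMIs over a pair of libraries were compared between genotypes on the log2 scale of CPM ratios. In p53 AD/- over p53+/-, 1326 genes were measured, of which 739 (55.7%) were higher and 587 (44.3%) lower, and 23 (1.73%) were at least 2-fold higher and 24 (1.81%) at least 2-fold lower. In p53-/- over p53+/-, 2163 genes were measured, of which 1369 (63.3%) were higher and 794 (36.7%) lower, and 23 (1.06%) were at least 2-fold higher and 10 (0.462%) lower. In p53 AD/- over p53-/-, 1842 genes were measured, of which 827 (44.9%) were higher and 1015 (55.1%) lower, and 23 (1.25%) were at least 2-fold higher and 100 (5.43%) lower. Each library enters 2 of the 3 pairs, so the pairs are not independent. Scaling set part of the direction. The median over all genes in p53-/- over p53+/- moved from 0.09 to -0.02 with TMM factors and to -0.03 with DESeq2 size factors, the share of genes called higher fell from 63.3% to 46.9% and 45.7%, and the share of genes at least 2-fold different that were higher went from 69.7% to 54.2% under both. The median in p53 AD/- over p53-/- moved from -0.06 to 0.05 with DESeq2 size factors.

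The 8 genes with the highest ratios in p53 AD/- over p53+/- (Lyz2, Apoe, Prg4, Saa3, C1qa, Fn1, Wfdc17 and Ifitm3) rested on the barcode with few Cd3 UMIs. Without it Lyz2 fell from 1154 UMIs to 1 and the number of genes at least 2-fold higher dropped to 13, of 1290 measured. The same barcode took the number in p53 AD/- over p53-/- from 13 without it to 23 with it. Of the 20 genes with the highest and lowest ratios once the barcodes were left out, it moved the ratios by up to 0.81 in p53 AD/- over p53+/- and by up to 0.45 in p53 AD/- over p53-/-. The p53-/- barcode moved none of the 20 such ratios of p53-/- over p53+/- by more than 0.02.

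Without that barcode, the RNA-destabilising protein gene Zfp36l2 (chromosome 17, 84183931 to 84187947) had the lowest ratio in p53 AD/- over p53+/-. It stood at 344, 96.6 and 226 CPM in p53+/-, p53 AD/- and p53-/-, a log2 ratio of -1.83 (-2.37 to -1.33) and of -2.03 without the barcode. The ratio was also low in mature CD8 cells (-1.71) and in all other filtered cells (-2.31), so it was not particular to mature CD4 cells. Smad7, the inhibitor of TGF-beta signalling, was at 253, 94.1 and 216 CPM in p53+/-, p53 AD/- and p53-/-, and the cofilin phosphatase gene Ssh2 at 220, 81.4 and 235 CPM. Without the barcode they were at 100.3 and 78.6 CPM in p53 AD/-. Arhgap20, a GTPase-activating protein gene, was at 169, 55.9 and 98.7 CPM. In all of these the p53 AD/- library was the lowest and its interval lay apart from that of p53+/-. The ratio of Arhgap20 was -1.60 in members against -0.18 in mature CD8 cells and -0.18 in all other cells, the widest gap between cell sets among the 10 genes with the lowest ratios.

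Cd69 (chromosome 6, 129267325 to 129275436), the early activation receptor that holds S1pr1 inside the cell and so retains thymocytes, stood at 76.9, 198 and 129 CPM in p53+/-, p53 AD/- and p53-/-, with all 3 intervals apart. Its log2 ratio in p53 AD/- over p53+/- was 1.37 (0.83 to 1.91), while it was -0.18 in mature CD8 cells and 0.05 in all other cells. It had a UMI in 28 of 94 p53+/- and 23 of 64 p53 AD/- members, 1 p53 AD/- cell held 19 of the 78 UMIs, and over 40 members per library matched on Malat1 share it had 34 UMIs in each of the 2 libraries, a ratio of 0.21. Ccr9 was at 107, 183 and 204 CPM in p53+/-, p53 AD/- and p53-/-. S1pr1 together with Cd69 was seen in 16 of 94 p53+/- members, 14 of 64 p53 AD/- members and 20 of 155 p53-/- members. In the same order, S1pr1, a gene of the rule, had a UMI in 63, 36 and 85 members, and Cd69 in 28, 23 and 36. Whether the 2 genes met more often than these counts alone would give was not tested. The glycolytic enzyme gene Eno1 was at 318, 646 and 268 CPM in p53+/-, p53 AD/- and p53-/-, with p53 AD/- apart from both. Its ratio over p53+/- was 1.02 (0.75 to 1.29), against 0.91 in mature CD8 cells and 0.94 in all other cells. Actg1, which encodes cytoplasmic actin, was at 1076, 2118 and 1150 CPM, and the immunophilin gene Fkbp1a at 152, 320 and 202 CPM.

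**Figure D3:**
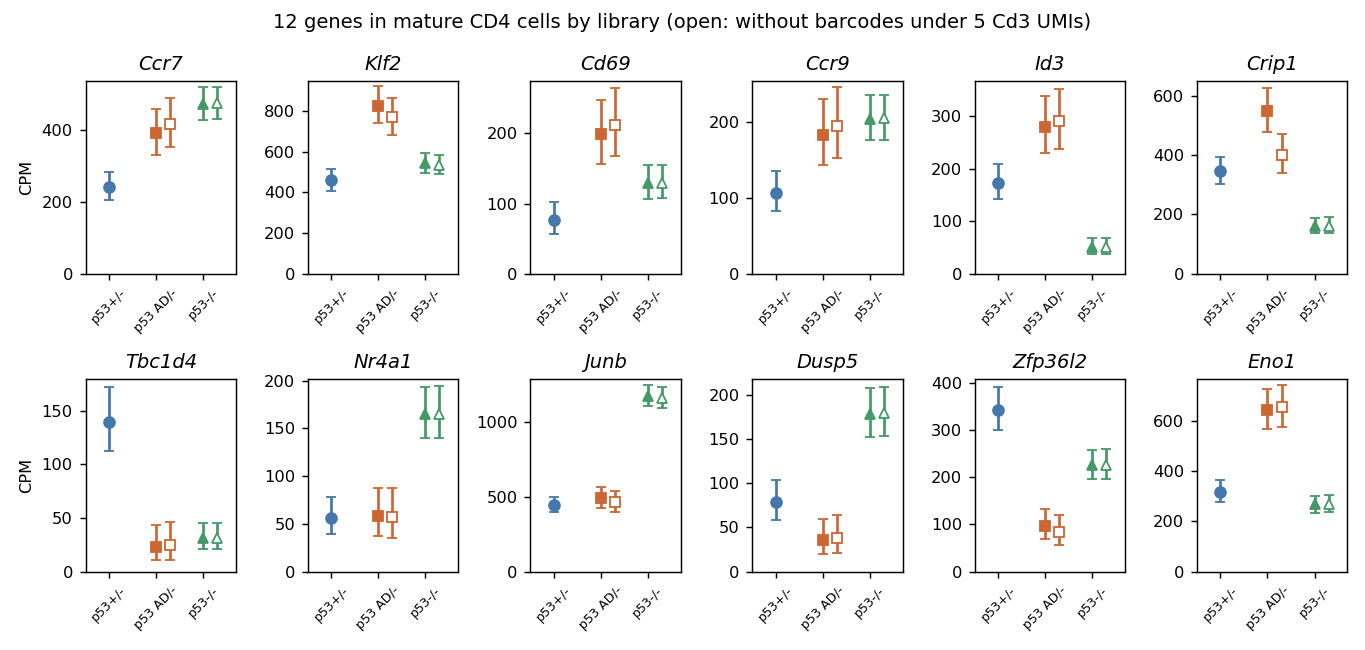
CPM of 12 genes in mature CD4 cells, 1 filled point per library with its exact Poisson interval, and open points without the barcodes under 5 Cd3 UMIs. Id3 lies at 173, 280 and 51.0 CPM in p53+/-, p53 AD/- and p53-/-, and Junb at 445, 493 and 1174 CPM.

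Id3 (chromosome 4, 136143497 to 136145755), an inhibitor of E proteins that is induced by receptor signals in thymocytes, was at 173, 280 and 51.0 CPM in p53+/-, p53 AD/- and p53-/-. The 3 intervals did not overlap, and p53-/- was the lowest. Its log2 ratio in p53-/- over p53+/- was -1.76 (-2.28 to -1.25) in members, -0.77 in mature CD8 cells, -0.33 in all other cells and 0.23 in preselection double-positive cells. Over the members matched on Malat1 share it had 80, 70 and 17 UMIs. Tbc1d4, a Rab GTPase regulator of glucose transporter traffic, was at 140, 22.9 and 31.4 CPM, highest in p53+/-, where 1 cell held 22 of the 89 UMIs. Its ratio in p53-/- over p53+/- was -2.15 in members, and 0.42 in mature CD8 cells and 0.26 in all other cells. Crip1, a small LIM-domain protein gene of late single-positive cells, was at 345, 547 and 162 CPM, and at 401 CPM in p53 AD/- without the barcode. Its ratio in p53 AD/- over p53-/- was 1.76 with that barcode counted. Over members matched on Malat1 share, which did not include the barcode, the ratio was 0.44. Lars2, the mitochondrial leucyl-tRNA synthetase gene, was at 1111, 964 and 441 CPM. Its ratio in p53-/- over p53+/- was -1.33 in members and -1.35 in all other cells, so the whole p53-/- library shared it. The histone gene Hist1h2ap stood at 196, 290 and 35.8 CPM in members, and its ratio was -1.85 in all other cells.

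Among the 10 genes with the highest ratios in p53-/- over p53+/- were 4 immediate-early or stress-induced genes, Junb, Nr4a1, Dusp5 and Ppp1r15a. The list of activation response genes as a whole had a median of 0.07 in this pair, against 0.09 over all genes. Junb (chromosome 8, 84974484 to 84978718), an AP-1 transcription factor, stood at 445, 493 and 1174 CPM in p53+/-, p53 AD/- and p53-/-, a log2 ratio in p53-/- over p53+/- of 1.40 (1.21 to 1.59). Nr4a1 (chromosome 15, 101254269 to 101274795), the nuclear receptor Nur77 whose message follows receptor signal strength, stood at 56.5, 58.5 and 165 CPM, a ratio of 1.55 (1.01 to 2.11). The intervals of their ratios in p53 AD/- over p53+/- spanned 0 (0.15 for Junb and 0.05 for Nr4a1). Nr4a1 had 15, 12 and 38 UMIs over the members matched on Malat1 share. Dusp5, a phosphatase of ERK, was at 78.4, 35.6 and 179 CPM, and Ppp1r15a, a stress-induced phosphatase subunit, at 48.6, 38.1 and 117 CPM. The ratios of these 4 genes in p53-/- over p53+/- were also above 0 in mature CD8 cells (1.54 for Junb, 1.03 for Nr4a1, 1.45 for Dusp5 and 1.03 for Ppp1r15a) and in all other cells (1.21, 1.27, 1.46 and 0.70). Mef2d, a transcription factor that acts on Nr4a1, was at 31.4, 22.9 and 97.6 CPM, with a ratio of 1.64 in members, 0.61 over members matched on Malat1 share and 0.22 in mature CD8 cells. Gpr183, an oxysterol receptor that guides lymphocyte migration, was at 50.2, 68.6 and 128 CPM, a ratio of 1.35 in members, 0.46 in mature CD8 cells and 0.52 in all other cells. Hivep3 was at 56.5, 30.5 and 145 CPM, but 1 p53-/- cell held 29 of its 134 UMIs and the ratio was -0.09 over members matched on Malat1 share.

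The promoters of Nr4a1, Junb, Ppp1r15a and Dusp5 are shown because they were high together in p53-/-. Each line gives the 250 bases before the start of the RefSeq transcript (GRCm38.p6), on the strand of the gene. Capitals mark TGACG, the core of the cyclic AMP response element bound by CREB and ATF proteins, or CGTCA, which is the same letters on the other strand.
Nr4a1, chr15:101266596-101266845, plus strand: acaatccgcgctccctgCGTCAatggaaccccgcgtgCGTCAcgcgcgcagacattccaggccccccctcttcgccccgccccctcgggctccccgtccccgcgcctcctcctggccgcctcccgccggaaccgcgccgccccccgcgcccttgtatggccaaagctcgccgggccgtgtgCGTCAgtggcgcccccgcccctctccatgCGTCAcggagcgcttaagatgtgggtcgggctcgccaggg
Junb, chr8:84978749-84978998, minus strand: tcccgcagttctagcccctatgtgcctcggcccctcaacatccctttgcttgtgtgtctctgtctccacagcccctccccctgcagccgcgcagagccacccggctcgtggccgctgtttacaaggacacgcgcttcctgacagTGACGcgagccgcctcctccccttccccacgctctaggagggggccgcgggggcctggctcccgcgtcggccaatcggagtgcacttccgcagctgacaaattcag
Ppp1r15a, chr7:45526269-45526518, minus strand: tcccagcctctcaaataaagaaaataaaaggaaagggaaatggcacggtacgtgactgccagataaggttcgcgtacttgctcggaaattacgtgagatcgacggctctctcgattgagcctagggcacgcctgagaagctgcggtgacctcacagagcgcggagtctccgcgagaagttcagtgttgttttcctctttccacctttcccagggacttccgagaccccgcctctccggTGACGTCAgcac
Dusp5, chr19:53528895-53529144, plus strand: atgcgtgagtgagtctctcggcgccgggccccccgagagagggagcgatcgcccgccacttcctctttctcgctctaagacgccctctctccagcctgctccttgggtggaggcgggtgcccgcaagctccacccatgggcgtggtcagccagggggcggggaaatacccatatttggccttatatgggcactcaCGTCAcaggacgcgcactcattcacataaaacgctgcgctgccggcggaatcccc
Nr4a1 held 4 matches, Ppp1r15a 2 that overlap in TGACGTCA, and Junb and Dusp5 held 1 each. Of 32851 promoter windows of this length, 5836 (17.8%) held at least 1 match. A match is a description of the letters and shows no binding. As the genes and the motif were picked, the share over all windows is no test of enrichment in these 4.

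Against p53-/-, the p53 AD/- members had Dusp5 among the 10 genes with the lowest ratios. The ratio was -2.33 for Dusp5, -1.25 for Junb and -1.49 for Nr4a1. Tnfaip3, which encodes the NF-kB inhibitor A20, was at 100, 22.9 and 105 CPM, lowest in p53 AD/-, and Rgs2, a regulator of G protein signalling, at 84.7, 30.5 and 150 CPM. The chromatin protein gene Tcf20 (86.3, 22.9 and 117 CPM) and the phosphodiesterase gene Pde4d (73.7, 25.4 and 137 CPM) showed the same order of libraries. All 10 genes with the lowest ratios in this pair were also lower in mature CD8 cells and in all other cells. In each of these sets 8 of the 10 were at least 2-fold lower, so the low ratios were not particular to mature CD4 cells. Tsix had the lowest ratio, -2.74, and overlaps Xist on the other strand, and since no source used here gives the use of strand in counting, the reads of these genes cannot be told apart. Among the highest ratios without the barcode were those of Hist1h2ap (3.05) and Id3 (2.50). Lgals1, which encodes galectin-1, was at 262, 508 and 168 CPM, highest in p53 AD/- (521 CPM without the barcode). Its ratio in p53 AD/- over p53-/- was 1.60, and 0.49 over members matched on Malat1 share.

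Energy metabolism genes were shifted in p53 AD/- against both other libraries. Of all genes, 55.7% were higher and 44.3% lower in p53 AD/- over p53+/-, and 44.9% and 55.1% over p53-/-. Over p53+/-, 7 of 8 measured glycolysis genes were higher and 1 lower, with a median log2 ratio of 0.70 against 0.05 over all genes. Pkm was at 445 CPM against 237, Ldha at 552 against 322, and Gapdh at 1014 against 664. The same genes had medians of 0.88 in mature CD8 cells and 0.74 in all other cells. Nuclear-encoded respiratory chain genes were higher for 57 of 70 (median 0.21), and mitochondrially encoded genes were lower for 11 of 12 (median -0.68). The latter included mt-Nd3, at 290 CPM in p53 AD/- against 935 in p53+/-, and mt-Nd5, at 221 against 607. In mature CD8 cells and all other cells the medians were 0.25 and 0.16 for the same respiratory chain genes and -0.68 and -0.77 for the same mitochondrially encoded genes. The median mitochondrial share of UMIs per member was 3.73%, 2.99% and 3.62% in p53+/-, p53 AD/- and p53-/-. These shares differed less than the median over genes, which counts each gene equally. The medians in p53 AD/- over p53-/- were 0.64 for 8 glycolysis genes (8 higher), 0.23 for 72 respiratory chain genes (61 higher) and -0.81 for 13 mitochondrially encoded genes (12 lower), against -0.06 over all genes. Between p53-/- and p53+/- they were 0.02, -0.02 and -0.03, against 0.09, and the first turned negative with TMM and DESeq2 factors. Without the barcode with few Cd3 UMIs the medians in p53 AD/- over p53+/- were 0.71 for glycolysis, 0.25 for the respiratory chain and -0.65 for mitochondrially encoded genes, and those of the antioxidant and chaperone genes that follow were 0.44 and 0.26. Antioxidant and glutathione genes were higher in p53 AD/- over p53+/- for 12 of 13 (median 0.50), among them the peroxiredoxin gene Prdx1 at 338 CPM against 207 and the glutathione transferase gene Gstp1 at 153 against 75.3. Chaperone genes were higher for 17 of 20 (median 0.28), with Hspa8 at 1548 CPM against 820. Glucocorticoid response genes were lower for 8 of 9 (median -0.49), including Txnip at 188 CPM against 278. For the same genes in mature CD8 cells and all other cells, medians were 0.43 and 0.33 (antioxidant), 0.44 and 0.28 (chaperone) and -0.34 and -0.20 (glucocorticoid response).

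Of all genes, 55.7% were higher and 44.3% lower in p53 AD/- over p53+/-, and 63.3% and 36.7% in p53-/- over p53+/-. In p53 AD/- over p53-/-, 44.9% were higher and 55.1% lower, and the list counts that follow stand beside these shares. CD4 lineage regulators were lower in p53 AD/- over p53+/- for 6 of 8 (median -0.20, and 0.088 with members thinned to 1500 UMIs), and in p53 AD/- over p53-/- for 9 of 13 (median -0.64, and 0.055 over members matched on Malat1 share). Ikzf1, which encodes Ikaros, was at 318, 155 and 312 CPM in p53+/-, p53 AD/- and p53-/-, and Satb1, a genome organiser that acts in lineage choice, at 1056, 803 and 1409 CPM. Late single-positive genes were split 13 to 10 in p53 AD/- over p53+/- (median 0.01) and 14 to 14 in p53-/- over p53+/- (median -0.01), where 36.7% of all genes were lower. Early single-positive genes were higher for 8 of 13 in p53 AD/- over p53+/- and for 9 of 14 in p53-/- over p53+/-, with medians of 0.14 and 0.18, where 55.7% and 63.3% of all genes were higher. Egress and migration genes outside the rule were higher for 8 of 12 in p53 AD/- over p53+/- (median 0.37, -0.18 among genes with at least 200 UMIs, and -0.04 for the same genes in mature CD8 cells) and for 15 of 19 in p53-/- over p53+/- (median 0.22). T cell receptor signalling genes were higher for 13 of 23 and for 21 of 32 in the same pairs (medians 0.05 and 0.21), close to the 55.7% and 63.3% of all genes, and lower for 21 of 28 in p53 AD/- over p53-/- (median -0.27). The adaptor gene Lat, at 547 CPM in p53 AD/- against 329 in p53+/-, and the selection gene Themis, at 61.0 against 143, differed in opposite directions within that list. Over members matched on Malat1 share the log2 ratio of Themis went from -1.23 to -0.33. Activation response genes were higher for 14 of 19 in p53-/- over p53+/- with a median of 0.07, which turned negative with TMM and DESeq2 factors. They were split 8 to 6 in p53 AD/- over p53+/- (median 0.10, and -0.10 without the barcode with few Cd3 UMIs), and lower for 10 of 18 in p53 AD/- over p53-/- (median -0.57). Interferon-stimulated genes were higher for 6 of 19 and 15 of 30 over p53+/- (medians -0.08 and -0.01). Gimap GTPase genes, MHC class I genes and costimulatory receptor genes had medians of -0.18, -0.11 and 0.18 in p53 AD/- over p53+/- and of 0.03, -0.03 and 0.07 in p53-/- over p53+/-. p53 target genes were mostly under the limit of 100 UMIs: 2 of 50 were measured in p53 AD/- over p53+/-, and 7 in p53-/- over p53+/-, where 2 were higher and 5 lower (median -0.09). Nuclear-retained noncoding RNAs, a list led by Malat1, were lower in p53 AD/- over p53+/- for 6 of 6 (median -0.49) and over p53-/- for 8 of 9 (median -0.78).

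**Figure D4:**
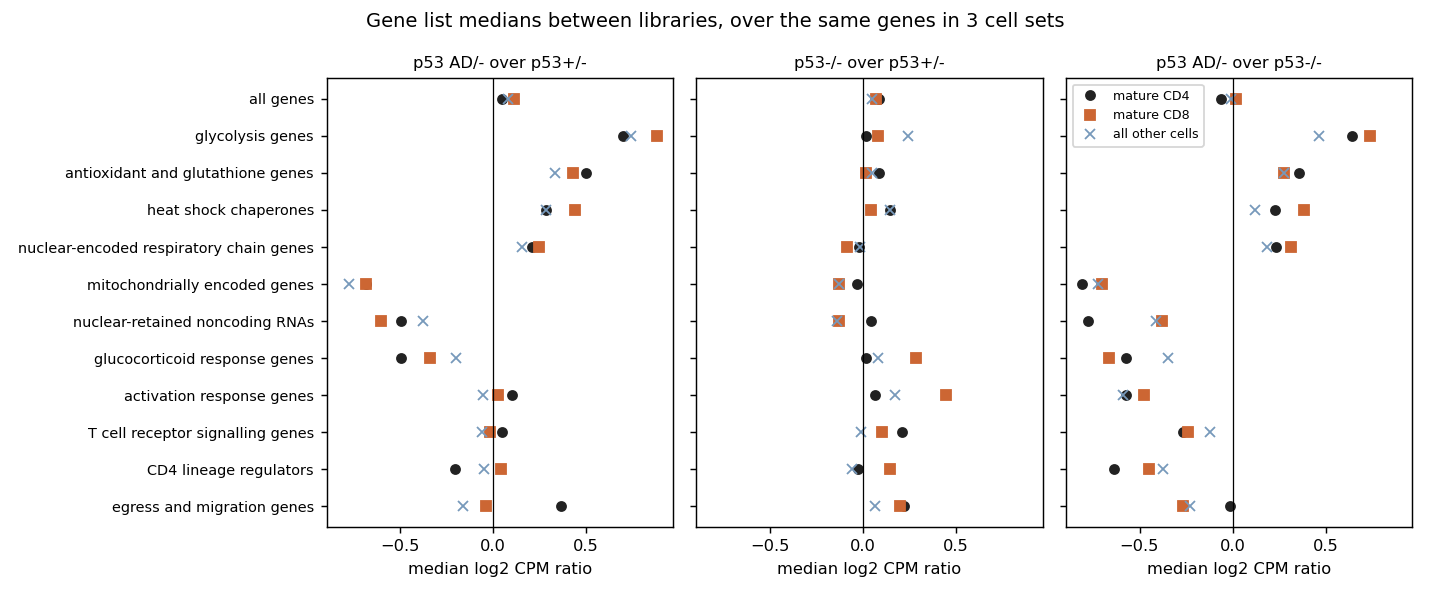
Median log2 CPM ratio of each gene list for the 3 pairs of libraries, over the genes measured in mature CD4 cells, with the medians of the same genes in mature CD8 cells and in all other filtered cells. Glycolysis and mitochondrially encoded genes lie on opposite sides of 0 in p53 AD/- over p53+/-, at 0.70 and -0.68, in the mature CD4 cells.

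The variable genes of the receptor beta chain, all on chromosome 6, were compared with preselection double-positive cells over the 3 libraries summed, as the counts were small. Members held 220 UMIs of variable genes in 141 cells. Trbv15 (41141188 to 41141658) had 0 of these UMIs, which allows a share of up to 1.36% (3 counts of the total) or 1.66% by the exact binomial interval, against 5.71% of 5006 UMIs in double-positive cells (5.09 to 6.39%), where it was seen in 234 cells, and 2.31% in mature CD8 cells (0.934 to 4.70%). Trbv13-2 took 4.09% (1.89 to 7.62%) against 9.99% in double-positive and 11.2% in mature CD8 cells. Trbv20 took 9.09% (5.64 to 13.7%) against 3.60% and 3.96%, but 3.70% against 3.36% of the double-positive UMIs within p53+/-, where it had 3 UMIs in 2 members. Trbv19 took 14.1% (9.78 to 19.4%) against 7.67% and 8.58%, and Trbv2 25.0% (19.4 to 31.3%) against 17.4% and 17.2%. The variable genes named here were picked from all of them by no rule set beforehand, and the intervals do not allow for that choice. UMIs of 1 cell share its receptor, so the intervals are too narrow, and reads of variable genes with near-identical copies may be split between them. Counted by cells with a variable gene UMI, Trbv19 was in 25 of 141 members (17.7%, 11.8 to 25.0%) against 9.11% of 3216 double-positive cells, Trbv20 in 13 (9.22%, with an interval that reaches 15.3%) against 4.23%, and Trbv15 in none (up to 2.58%) against 7.28%.

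**Figure D5:**
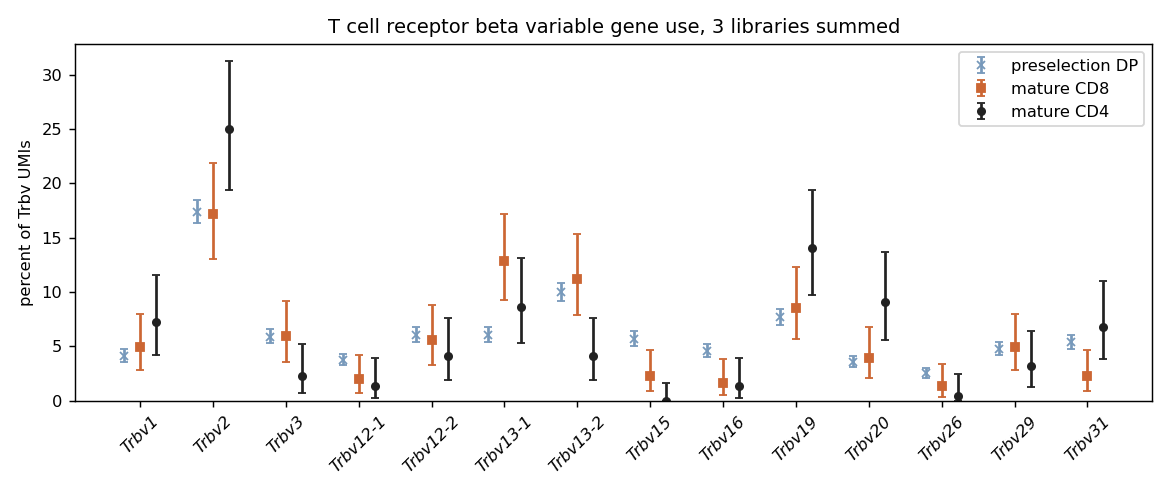
Share of Trbv UMIs taken by selected variable genes in preselection double-positive, mature CD8 and mature CD4 cells, 3 libraries summed, with exact binomial intervals that treat each UMI as independent. Trbv15 lies at 0 in the mature CD4 cells and at 5.71% in the double-positive cells.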

How the data were processed

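Single-cell RNA of 1 thymus library per genotype was analysed, with samples grouped by the genotype label. The deposited values are raw UMI counts per gene and barcode. Per the file headers, Cell Ranger 4.0.0 produced them, and the submitters' processing notes name GRCm38. No source used here gives the chemistry, annotation or strand setting. The rule was applied to these counts. No doublet caller was run. Counts were summed over members per library and expressed as CPM of all UMIs. Counts under 3 were set to 3 in ratios. No test was made, as each genotype is 1 library. The members and gene lists were chosen with earlier results of these data known. Genes named were the markers, Trp53, Cdkn1a and Mdm2, the 10 highest and 10 lowest ratios per pair among genes with at least 100 UMIs (mitochondrial, ribosomal, haemoglobin, receptor segment, unnamed, duplicated and rule genes left out), up to 5 per list, and 8 per direction against the other cell sets. The genes described along the egress gene sum and those of the 2 barcodes were chosen after values were seen. The variable genes of the receptor beta chain were picked by no rule set beforehand. Some genes that met these rules are not reported here. Alternatives were other cell filters, rule thresholds, thinning, matching on Malat1, other minimum UMIs, and scaling with edgeR 4.0.16 (TMM) and DESeq2 1.42.0 factors. Ratio intervals were run on simulated independent Poisson counts, the model that they assume. That simulation leaves out UMIs clustered in single cells, so it cannot show how well the intervals cover the real counts. Python 3.11.15 with scipy 1.17.1 was used. Gene coordinates come from an annotation of GRCm38 that matched 32235 of 32285 features, and promoters from RefSeq.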

Additional observations from a re-analysis of the deposited data

How the results depend on the processing

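No paired analysis was possible because each genotype is 1 library, and for the same reason no replicate could be left out. The share of members moved beyond its interval with cells thinned to 2000 UMIs and shallower cells left out (0.755% in p53+/- and 1.04% in p53-/-). It also moved with an egress gene sum of at least 2 (1.46% in p53+/-) and with up to 1 UMI of Cd8a and Cd8b1 (1.75%, 1.41% and 2.39% in p53+/-, p53 AD/- and p53-/-). A sum of at least 8 (0.822%, 0.632% and 1.02%) and at least 1000 genes per cell (1.33% in p53 AD/-) moved it as well. Counts of genes at least 2-fold different moved as follows. In p53 AD/- over p53+/- the 23 higher genes became 13 without the 5% of cells with most UMIs, 13 without barcodes under 5 Cd3 UMIs, 4 with members thinned to 1500 UMIs, 5 with equal numbers per Malat1 bin, 57 with at least 50 UMIs and 8 with at least 200, and the 24 lower became 46 with up to 1 Cd8 UMI, 5 thinned, 10 by Malat1 bin, 100 with 50 UMIs and 10 with 200. In p53-/- over p53+/- the 23 higher became 13 with TMM, 13 with DESeq2 factors, 2 thinned, 3 by Malat1 bin, 85 with 50 UMIs and 8 with 200, and the 10 lower became 4 thinned, 5 by Malat1 bin, 5 with a sum of at least 8, 19 with 50 UMIs and 5 with 200. In p53 AD/- over p53-/- the 23 higher became 13 without the deepest cells, 13 without the low Cd3 barcodes, 7 thinned, 4 by Malat1 bin, 61 with 50 UMIs and 13 with 200, and the 100 lower became 13 thinned, 13 by Malat1 bin, 58 with a sum of at least 8, 269 with 50 UMIs and 31 with 200. Thinning and Malat1 bins (40 members per library) leave fewer genes and cells by construction.

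A reversal was counted for gene ratios of at least 2-fold and list medians of at least 0.2 (log2) that changed sign. There were 7 such gene ratios, in 8 ratio and setting combinations: Cst3 in p53 AD/- over p53+/- (-0.018 both without the deepest cells and without the low Cd3 barcodes), Ifitm3 in the same pair (-0.21) and S100a11 (0.037) and Hivep3 (-0.085) in p53-/- over p53+/- by Malat1 bin, and Lyz2 (-0.68), C1qa (-0.26) and Apoe (-1.70) in p53 AD/- over p53-/- without the deepest cells. Of list medians, 4 reversed: CD4 lineage regulators in p53 AD/- over p53+/- (0.088 thinned) and over p53-/- (0.055 by Malat1 bin), egress genes in p53 AD/- over p53+/- (-0.18 with 200 UMIs) and T cell receptor signalling genes in p53 AD/- over p53-/- (9.35e-05 thinned). Where no value shows the cause, the cause was not tested. Of the other combinations, 1304 gene ratios stayed within their intervals and 125 moved, and 834 list medians stayed within 0.2 and 45 moved. Smaller values could change sign: with a sum of at least 8, Eno3 in p53-/- over p53+/- went from -0.999 to 0.65 and Cd40lg in p53 AD/- over p53+/- from 0.22 to -1.07. Values from 64 to 155 cells of 1 library each limit precision, and the intervals leave out variation between animals.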
